A study of Mus musculus with 20 samples.

Results

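Endothelial cells of the basolateral amygdala (BLA) were described from 9 droplet single-cell libraries, 1 library per mouse. The cells were chosen by measured UMI counts of 18 genes. A barcode was kept when mitochondrial genes took at most 12.5% of its unique molecular identifiers (UMIs) and at least 200 genes were detected. It was taken as endothelial when Cldn5, Ly6c1, Flt1, Itm2a, Slco1a4, Ly6a and Abcb1a together had at least 4 UMIs and 11 markers of other cells (Cx3cr1, C1qa, Gja1, Aqp4, Mog, Mag, Pdgfra, Kcnj8, Vtn, Slc17a7 and Gad1) together had at most 2. This gave 1053 cells of 5908 kept barcodes (17.8%) and of 26253 barcodes in all. The marker and exclusion limits had few barcodes at their edges. At the marker limit of 4 UMIs lay 10 cells, with 7 barcodes just outside at 3. At the exclusion limit of 2 UMIs lay 55 cells, with 22 barcodes just outside at 3. A further 159 kept barcodes passed the marker limit and failed the exclusion limit. The mitochondrial limit removed more, namely 255 of the 1308 barcodes that met all the other limits. This loss was uneven, from 10.3% in mouse 9949 to 29.1% in mouse 9968.

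The mice were wild-type C57BL/6 males aged 13 weeks. Drinking water held corticosterone (CORT) at 35 µg/ml for 6 weeks or not, the controls being labelled with the vehicle 2-hydroxypropyl cyclodextrin (BCD) while 1 passage of the methods speaks of plain water, and the brain was taken 24 h after an injection of ketamine (Ket) at 10 mg/kg or of saline (Sal). Mice 9901 and 9947 were BCD/Sal (n = 2), mice 9946, 9949 and 9986 were BCD/Ket (n = 3), mouse 9969 was CORT/Sal (n = 1), and mice 9967, 9968 and 9971 were CORT/Ket (n = 3). The other CORT/Sal library, of mouse 9970, was left out by the rule, so every comparison with saline-treated CORT mice rests on 1 mouse. The labels name the BLA as the tissue but describe dissection of the prefrontal cortex, and the time of day of collection is not given in the sources used here.

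Endothelial cells line the blood vessels of the brain and form the blood-brain barrier. Tight junctions seal the gaps between them, and carriers and efflux pumps in their membranes decide which molecules cross. Like most cells they hold a circadian clock, in which CLOCK and BMAL1 (the product of Arntl) switch on Per, Cry and Nr1d genes and the output factors Dbp, Tef and Hlf, and the products of Per, Cry and Nr1d genes switch the loop off again. Corticosterone, the main glucocorticoid of mice, reaches these cells from the blood, acts through the glucocorticoid receptor (Nr3c1) and is itself released in a daily rhythm.

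The libraries differed in depth. They held 166, 46, 145, 140, 156, 118, 31, 95 and 156 endothelial cells, in the order of the mice given above, with 251126, 33751, 109690, 507637, 326520, 358666, 21042, 267396 and 282686 UMIs. The median depth per cell ran from 477 UMIs in mouse 9967 to 2545.5 in mouse 9949, and the median number of genes from 355 to 1355. In the sum of mouse 9967, 1 UMI stands for 47.5 CPM (counts scaled to a total of 1000000 UMIs), and in that of mouse 9947 for 29.6 CPM, so a gene without a UMI there may have a level of up to 143 and 88.9 CPM (3 counts, counting error only).

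The 3 shallowest libraries (mice 9947, 9946 and 9967) stood apart in composition as well. Gm42418, a transcript that overlaps ribosomal RNA sequence, had 71257, 19646 and 56268 CPM in these libraries and between 1071 and 2165 CPM in the other 6. The mitochondrial mt-Co1 had 859, 748 and 1426 CPM against 7427 to 8538 CPM, and the 22 immediate early and dissociation genes together had 2607, 3565 and 2044 CPM against 8352 to 20647 CPM. These libraries belong to 3 different groups, and the counts of changed genes below are given with and without them. The 9 libraries shared 85 barcode sequences in pairs, at most 9 between 2 libraries, and no endothelial barcode occurred in 2 libraries.

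**Figure D1:**
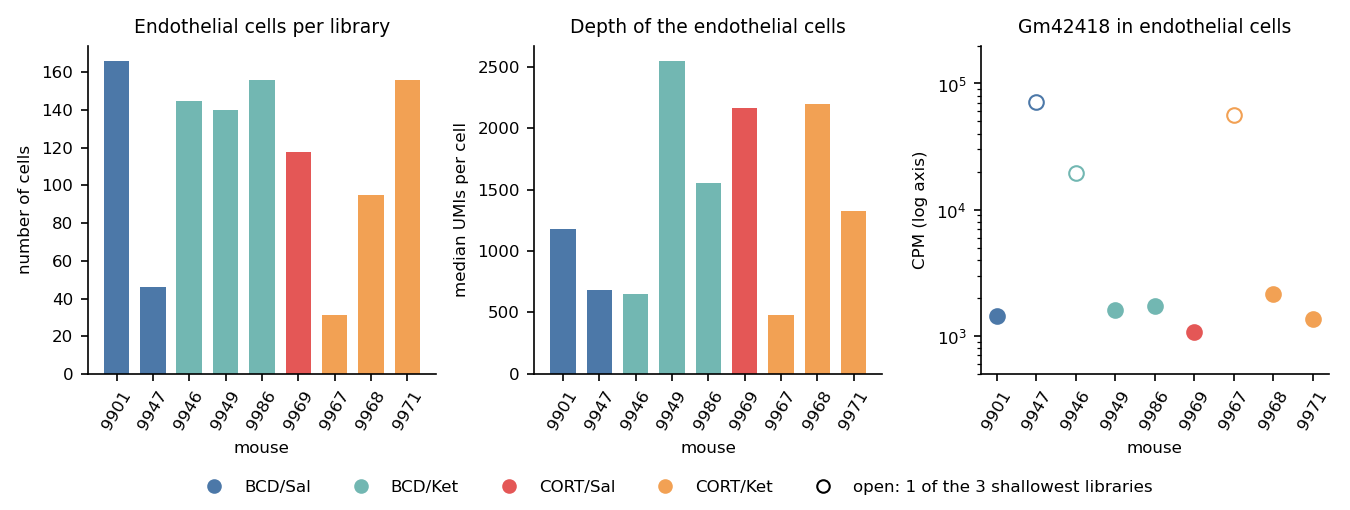
Number of endothelial cells (left, bars), median UMIs per endothelial cell (middle, bars) and Gm42418 in CPM on a log axis (right, points) in each of the 9 mice, coloured by group, without error bars since each value is 1 library. The 3 libraries drawn open on the right had 19646 to 71257 CPM of Gm42418 and the other 6 had at most 2165.

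The cells carried the endothelial programme beyond the 7 genes of the rule. All 20 further pan-endothelial genes were detected, and together they had 12710 ± 875 CPM in the 9 libraries (SD, n = 9) against 560 CPM in the other kept barcodes. Among them, the receptor tyrosine phosphatase Ptprb had 2751 ± 635 CPM, the adhesion molecule Pecam1 747 ± 121 CPM, the VEGF receptor Kdr 721 ± 123 CPM and VE-cadherin (Cdh5) 451 ± 143 CPM (SD, n = 9). Outside the rule's genes, the highest fold over the other barcodes belonged to the riboflavin transporter Slc52a3, then to Tbx1, Sema3g, Srarp, Trim16 and Myct1. These folds describe cells that were selected on endothelial genes, and they were not tested.

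Markers of microglia, astrocytes, oligodendrocytes and neurons were lower in these cells than in the other barcodes. The exclusion limit of the rule uses other genes of these cell types, so lower levels follow in part from the selection and were not tested. The means of markers of pericytes and smooth muscle, the other cells of the vessel wall, were not lower. The 10 microglial markers summed to 38.6 CPM against 5025 CPM in the other barcodes, with Tmem119 at 0. The 12 astrocyte markers summed to 1101 ± 992 CPM against 8703 CPM, with a range from 267 CPM in mouse 9947 to 3469 CPM in mouse 9967. Oligodendrocyte markers had 812 ± 276 CPM, 73.1% of it Mal, against 7741 CPM in the other barcodes. Pericyte markers had 1020 ± 497 CPM against 717 CPM, 79.8% of it Rgs5, and smooth muscle markers 951 ± 484 CPM against 422 CPM. The pericyte sum ran from 207 CPM in mouse 9947 to 1578 CPM in mouse 9971. It lay below that of the other barcodes in mice 9947, 9946 and 9949. The 13 neuronal markers had 3163 ± 1348 CPM against 18172 CPM in the other barcodes. Fibroblast markers had 13.5 CPM, with Lum and Col1a1 at 0, and 4 of the 11 markers of macrophages and blood immune cells (Lyve1, Cd163, Ms4a7 and Cd3e) were at 0.

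Red cell transcripts were uneven. The 5 erythrocyte genes, 60.7% of them Hbb-bs, had 32418 CPM in BCD/Ket mouse 9986 and between 0 and 5246 CPM in the other 8 mice. The smooth muscle markers, led by Crip1, ran from 390 CPM in mouse 9901 to 2091 CPM in mouse 9967. The part of these transcripts in the comparisons below was not tested. Genes of fenestrated endothelium, which lacks the barrier, came to 79.0 CPM, 85.8% of it Plpp3, against 7.53 CPM for Plvap, the protein of the fenestral diaphragm.

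**Figure D2:**
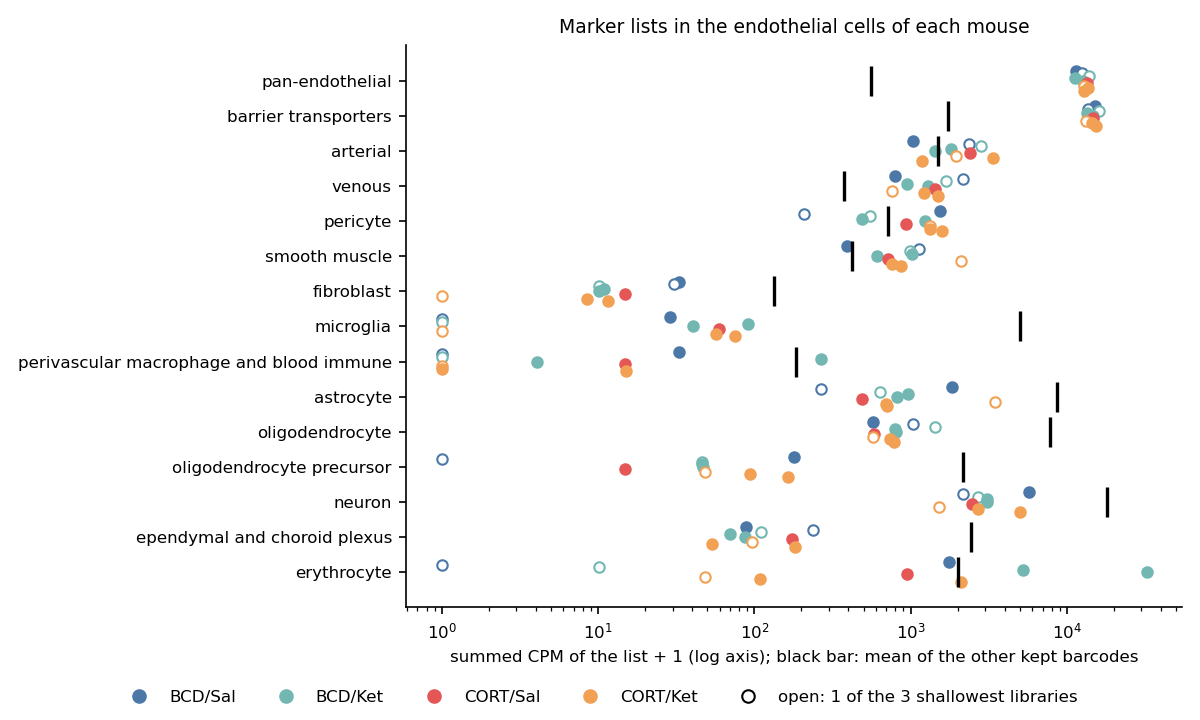
Summed CPM + 1 (log axis) of 15 marker lists in the endothelial cells, 1 point per mouse coloured by group and drawn open for the 3 shallowest libraries, with a black bar at the mean of the other kept barcodes. Pan-endothelial and barrier genes lie above the bar in all 9 mice, microglial, astrocyte, oligodendrocyte and neuronal markers below it, and the erythrocyte list spans 0 to 32418 CPM.

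As summed lists, barrier genes differed little between the mice, while single genes varied more. The 16 genes of tight and adherens junctions summed to 4480 ± 275 CPM, and the 24 barrier transporters to 14544 ± 963 CPM against 1729 CPM in the other barcodes (SD, n = 9). The glucose carrier Slc2a1 had 1777 ± 445 CPM, the thyroid hormone and anion carrier Slco1c1 1734 ± 303 CPM and the taurine carrier Slc6a6 2447 ± 300 CPM. Occludin (Ocln), a tight junction protein, had 208 ± 46.7 CPM against 10.5 CPM in the other barcodes. The lipid carrier Mfsd2a, which restrains transcytosis across the barrier, had 283 ± 53.1 CPM, the efflux pump Abcg2 786 ± 162 CPM and the transferrin receptor Tfrc 630 ± 202 CPM.

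Regulators of the barrier were detected alongside. The 24 endothelial transcription factors summed to 8694 ± 1105 CPM against 612 CPM in the other barcodes. Among those of the Wnt pathway, which induces barrier properties in brain vessels, Lef1 had 636 ± 172 CPM and its target Axin2 118 ± 38.2 CPM, and the receptor Fzd4 had 182 ± 56.5 CPM. Foxq1 had 615 ± 179 CPM, Epas1, a hypoxia-inducible factor, 1812 ± 408 CPM and the shear stress factor Klf2 1512 ± 805 CPM. Klf2 ran from 428 CPM in mouse 9967 to 2823 CPM in mouse 9949, the mice in which the immediate early and dissociation list, which includes Klf2, was also lowest and highest.

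The summed levels of genes that differ along the vascular tree had larger SDs relative to their means than those of the barrier lists. The 16 arterial genes, which include Bmx, Sema3g and Gkn3, summed to 2042 ± 773 CPM (SD, n = 9) against 1497 CPM in the other kept barcodes. The sum ran from 1031 CPM in mouse 9901 to 3381 CPM in mouse 9968. It also holds Clu and Stmn2, which are not confined to arteries, so these levels need not be arterial expression alone. The 14 venous genes, which include Vwf, Slc38a5 and Nr2f2, summed to 1312 ± 450 CPM against 376 CPM, from 760 CPM in mouse 9967 to 2163 CPM in mouse 9947. The 10 capillary genes, among them Spock2 and Cxcl12, summed to 8948 ± 1255 CPM against 849 CPM. Spock2 had 3072 ± 568 CPM and Vwf, which encodes von Willebrand factor, 353 ± 239 CPM. Cells were not assigned to vessel types.

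Corticosterone was compared with BCD over both injections, in 4 CORT against 5 BCD mice with ketamine as a term of the fit. Genes of the circadian clock and 1 glucocorticoid target were lower in the CORT mice. Since the hour and day of collection of each mouse are not known here, corticosterone and collection time cannot be told apart for these or any other genes. In edgeR's quasi-likelihood test, 5 of 6203 genes passed an adjusted p of 0.05, all of them lower (0.0806% of the genes tested), namely Nr1d1, Dbp, Tsc22d3, Nr1d2 and Hlf. The same 5 genes passed with DESeq2 and without the 3 shallowest libraries. At an unadjusted p under 0.05, 142 genes were lower and 76 higher, and over the 6203 genes the fold changes had a median of -0.02 (log2). Each level below is a share of the UMIs of the endothelial sum of a mouse and is not scaled to gene length, and each fold change is from edgeR on the log2 scale.

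Nr1d1 encodes REV-ERBα, a repressor that closes a loop of the clock by holding Arntl down. It had 131 and 119 CPM in BCD/Sal, 128, 112 and 132 CPM in BCD/Ket, 22.3 CPM in CORT/Sal, and 47.5, 18.7 and 17.7 CPM in CORT/Ket, from 33, 4, 14, 57, 43, 8, 1, 5 and 5 UMIs. All CORT mice lay below all BCD mice, and the highest CORT value rests on 1 UMI. The fold change was -2.58 (SE 0.355, adjusted p = 0.000182, edgeR), with means of 124 ± 8.57 CPM in BCD (SD, n = 5) and 26.6 ± 14.1 CPM in CORT (SD, n = 4). Nr1d2, which encodes its paralogue REV-ERBβ, had 119 and 237 CPM in BCD/Sal, 191, 102 and 98 CPM in BCD/Ket, 22.3 CPM in CORT/Sal, and 0, 44.9 and 17.7 CPM in CORT/Ket. The groups did not overlap, and the fold change was -2.23 (SE 0.383, adjusted p = 0.00288, edgeR).

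Dbp, Hlf and Tef encode the PAR bZIP factors, the output arm of the clock that binds D-boxes. Dbp had 147 and 0 CPM in BCD/Sal, 109, 100.5 and 119 CPM in BCD/Ket, 13.9 CPM in CORT/Sal, and 47.5, 7.48 and 14.2 CPM in CORT/Ket. The groups overlapped because mouse 9947, a shallow BCD library, had no UMI of Dbp, and the fold change was -3.05 (SE 0.460, adjusted p = 0.000529, edgeR). Hlf had 211 and 88.9 CPM in BCD/Sal, 182, 72.9 and 107 CPM in BCD/Ket, 30.7 CPM in CORT/Sal, and 0, 26.2 and 35.4 CPM in CORT/Ket. These groups did not overlap either, and the fold change was -2.12 (SE 0.377, adjusted p = 0.00396, edgeR). Tef had 171 and 148 CPM in BCD/Sal, 146, 76.8 and 116 CPM in BCD/Ket, 16.7 CPM in CORT/Sal, and 0, 44.9 and 63.7 CPM in CORT/Ket, without overlap, but its fold change of -1.65 (SE 0.381) did not pass the threshold (adjusted p = 0.141, edgeR).

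Of the 18 clock genes listed, all were detected, 11 were tested and 4 fell, and their median log2 fold change was -1.65 against -0.02 over all genes. The 4 clock genes whose groups did not overlap (Nr1d1, Nr1d2, Hlf and Tef) stand beside 43 genes of the 6203 with all CORT mice below all BCD mice (0.693%). The period genes Per1 (-1.80, adjusted p = 0.761) and Per3 (-1.32, adjusted p = 0.761) of the negative limb did not pass in edgeR, with Per1 between 15.3 and 67.0 CPM in BCD and between 3.74 and 47.5 CPM in CORT. Arntl, in the positive limb, had 7.96, 0, 0, 15.8 and 3.06 CPM in BCD and 39.0, 0, 22.4 and 84.9 CPM in CORT, a fold change of 2.38 that did not pass (SE 0.630, adjusted p = 0.362, edgeR). Clock itself had 102 ± 30.3 CPM in BCD (SD, n = 5) and 102 ± 15.0 CPM in CORT (SD, n = 4), and Bhlhe40 (0.05) and Rora (0.03) had fold changes near 0. Per2, Cry1, Cry2, Ciart, Npas2, Bhlhe41 and Nfil3 were too low to be tested.

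**Figure D3:**
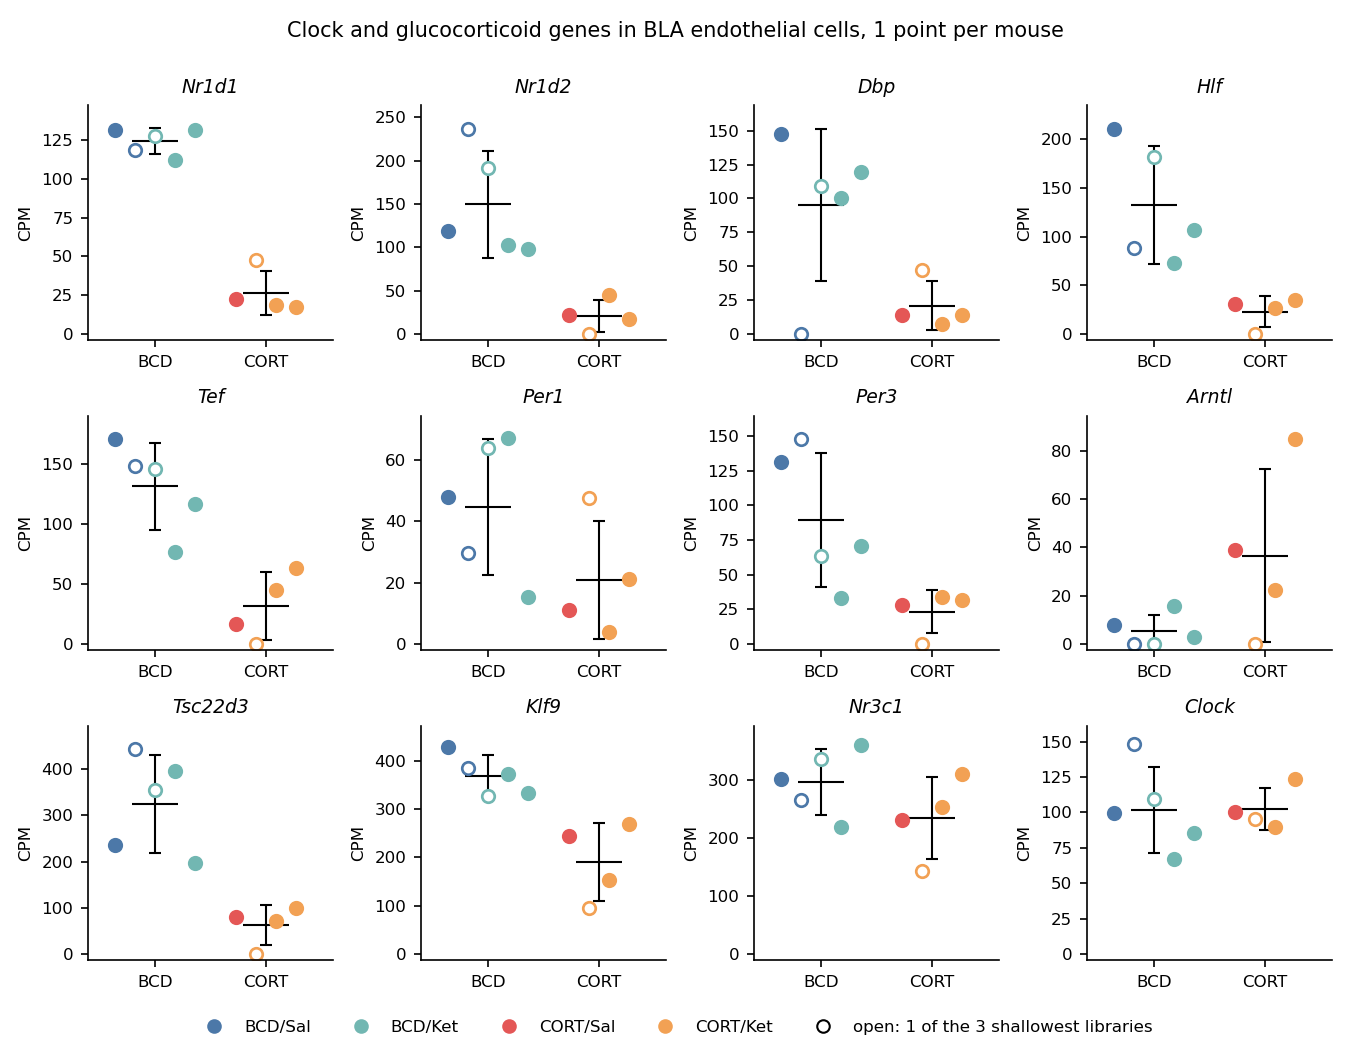
CPM of 12 clock and glucocorticoid genes in the endothelial cells, 1 point per mouse coloured by group, BCD (n = 5) beside CORT (n = 4), with the mean (horizontal line) and SD (vertical bar) and open points for the 3 shallowest libraries. Nr1d1 lies at 112 to 132 CPM in BCD and 17.7 to 47.5 CPM in CORT, and Clock has a mean of 102 CPM in both.

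These values are those of 9 mice under the rule. In the left-out CORT/Sal mouse 9970, 16 of 2397 kept barcodes (0.668%) met the marker limits, 8 of them at exactly 4 marker UMIs, with a median of 4.5 marker UMIs against 12 to 66 in the other libraries, so they may not be endothelial cells. In these 16 barcodes, with 20517 UMIs in all, Nr1d1 had 3 UMIs (146 CPM, 95% interval 30.2 to 427, exact Poisson, counting error only), Dbp and Tef 6 UMIs each (292 CPM, 107 to 637), Tsc22d3 1 UMI, and Nr1d2 and Hlf had none. The values of Nr1d1, Dbp and Tef lay above those of all 5 BCD mice, with intervals that reach into the BCD range or below it. With this library in the fit 4 genes passed and Dbp did not (-2.39, adjusted p = 1.00, edgeR). In the ketamine-treated mice alone, 3 of each, Nr1d1 and Dbp passed and the other 3 did not. Their fold changes there were -2.01 for Tsc22d3, -2.01 for Nr1d2 and -1.88 for Hlf. Without CORT/Sal mouse 9969 the count was 3, and without CORT/Ket mouse 9971 it was 18, of which 5 were the genes above. Nr1d2 (-2.02) and Hlf (-1.89) did not pass without mouse 9969.

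The 4 called clock genes, 3 further clock genes and 1 glucocorticoid target are shown with 80 bases from before their start sites (RefSeq, GRCm38.p6), placed next to the start or, where a motif was found, around it. Capitals mark the E-box CACGTG bound by CLOCK and BMAL1, the D-box TTANGTAA bound by DBP, HLF and TEF, the half-site AGGTCA bound by REV-ERB and ROR factors, and the glucocorticoid response element GNACANNNTGTNC, each on either strand. The windows of Nr1d1, Dbp and Hlf end 1 base before the start and hold none of the 4 motifs in the 250 bases searched. In that of Nr1d2 a half-site begins 77 bases before the start.
Nr1d1, chr11:98775378-98775457, minus strand: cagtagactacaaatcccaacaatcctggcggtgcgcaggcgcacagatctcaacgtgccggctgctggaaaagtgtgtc
Nr1d2, chr14:18239141-18239220, minus strand: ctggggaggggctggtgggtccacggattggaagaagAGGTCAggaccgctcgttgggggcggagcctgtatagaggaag
Dbp, chr7:45705167-45705246, plus strand: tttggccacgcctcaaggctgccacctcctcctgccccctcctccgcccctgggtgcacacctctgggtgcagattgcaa
Hlf, chr11:90390918-90390997, minus strand: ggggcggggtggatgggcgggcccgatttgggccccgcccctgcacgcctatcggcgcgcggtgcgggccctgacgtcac
Tef, chr15:81802509-81802588, plus strand: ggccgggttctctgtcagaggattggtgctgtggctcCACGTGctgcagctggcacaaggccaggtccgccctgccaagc
Per1, chr11:69098760-69098839, plus strand: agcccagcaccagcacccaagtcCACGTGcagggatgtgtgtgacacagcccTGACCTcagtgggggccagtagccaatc
Per3, chr4:151044804-151044883, minus strand: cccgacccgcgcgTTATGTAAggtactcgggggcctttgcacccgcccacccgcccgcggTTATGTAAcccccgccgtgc
Fam107a, chr14:8309852-8309931, minus strand: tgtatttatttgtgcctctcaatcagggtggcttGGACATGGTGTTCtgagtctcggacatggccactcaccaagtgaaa

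The E-box of Tef begins 127 bases before its start, that of Per1 166 bases before, and the D-boxes of Per3 205 and 158 bases before. Over all 32851 windows of 250 bases before a start, 6.02% held the E-box, 2.06% the D-box, 14% the half-site and 0.387% the glucocorticoid response element. Of the 16 clock genes with a window, 5 had the E-box, 1 the D-box, 4 the half-site and 0 the glucocorticoid response element in any of their windows, and a gene may have several. Of the 30 glucocorticoid response genes with a window, 5 had the E-box, 1 the D-box, 3 the half-site and 4 the glucocorticoid response element. Fam107a, shown above, was among these 4. The 5 called genes all had a window, and only Nr1d2 held any of the 4 motifs there. Such a match is a string of letters and not a site, and motifs farther away were not searched. On NCBIM37, Nr1d1 (ENSMUSG00000020889) lies at chr11:98629246-98636647, Dbp (ENSMUSG00000059824) at chr7:52960458-52965525, Nr1d2 (ENSMUSG00000021775) at chr14:19036568-19071641, Hlf (ENSMUSG00000003949) at chr11:90197849-90252231 and Tsc22d3 (ENSMUSG00000031431) at chrX:137074067-137135198.

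Tsc22d3 encodes GILZ, a leucine zipper protein induced by glucocorticoids. It had 235 and 444 CPM in BCD/Sal, 356, 396 and 196 CPM in BCD/Ket, 80.9 CPM in CORT/Sal, and 0, 71.1 and 99.0 CPM in CORT/Ket. All CORT mice lay below all BCD mice, and the fold change was -1.96 (SE 0.327, adjusted p = 0.00223, edgeR). It was the only member of the list of 34 glucocorticoid response genes to pass, of 24 that were tested, and 17 of the 24 had a negative fold change with a median of -0.48.

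The other glucocorticoid targets did not pass the threshold. Fam107a, a stress-responsive actin regulator, had 111, 148, 173, 100.5 and 76.6 CPM in BCD and 47.4, 47.5, 7.48 and 63.7 CPM in CORT, and the transcription factor Klf9 had 430, 385, 328, 372 and 334 CPM in BCD and 245, 95, 153 and 269 CPM in CORT. Neither gene's groups overlapped, with fold changes of -1.46 (SE 0.387, adjusted p = 0.362) and -0.81 (adjusted p = 1.00) in edgeR. With Tsc22d3, 3 tested genes of the list had all CORT mice below all BCD mice, beside 43 of the 6203 genes (0.693%). Ddit4, an inhibitor of mTOR signalling, had a fold change of -1.33 (adjusted p = 0.362), and Nfkbia, the inhibitor of NF-kappaB, one of -0.72 (adjusted p = 1.00, edgeR). The kinase Sgk1 (-0.30), the metallothionein Mt1 (-0.53), the cell cycle inhibitor Cdkn1a (-0.01) and Cebpd (0.37) were spread around 0. Fkbp5, a chaperone and a common marker of glucocorticoid exposure, had 10.7 ± 15.1 CPM (SD, n = 9) and was too low to be tested.

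None of the 7 tested genes of the receptor list passed. The glucocorticoid receptor Nr3c1 had 297 ± 56.7 CPM in BCD (SD, n = 5) and 235 ± 70.1 CPM in CORT (SD, n = 4), with a fold change of -0.26 (SE 0.27). The mineralocorticoid receptor Nr3c2 had 31.8 ± 22.8 CPM in the 9 mice, and the enzymes Hsd11b1 and Hsd11b2, which activate and inactivate glucocorticoids, had 1.12 and 0.310 CPM. The co-chaperone Ptges3 had 119 to 164 CPM in BCD and 177 to 243 CPM in CORT, without overlap, as in 53 of the 6203 genes (0.854%), and a fold change of 0.53 (adjusted p = 1.00, edgeR).

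Outside the clock and glucocorticoid lists no gene passed. None of 20 pan-endothelial genes, 13 junction genes, 22 barrier transporters, 22 endothelial transcription factors, 16 genes of the Wnt list, 10 of the VEGF list, 10 of the Notch list, 13 of the TGF-beta and BMP list, 17 of the basement membrane list, 22 of the inflammation and interferon list and 13 of glycolysis was called. Their medians lay between -0.13 for the basement membrane and 0.23 for glycolysis. The same held for 15 arterial, 10 capillary and 9 venous genes, with medians of 0.20, -0.06 and 0.10, among them the arterial gene Cytl1 (4.64, adjusted p = 0.372, edgeR), and for 22 immediate early and dissociation genes, with a median of 0.09. Cytl1 had 97.6 CPM in mouse 9969, 86.0 CPM in mouse 9968, 3.94 CPM in BCD mouse 9949 and no UMI in the other 6 mice. Slc2a1 had a fold change of -0.39 (SE 0.29), Ocln one of 0.19 (SE 0.27) and Mfsd2a one of -0.13 (SE 0.26), none of them past the threshold. Sox18, an endothelial transcription factor, had 143, 88.9, 237, 244 and 270 CPM in BCD and 482, 190, 591 and 407 CPM in CORT, a fold change of 1.11 that did not pass (SE 0.300, adjusted p = 0.377, edgeR). Of the 22 tested endothelial transcription factors, 1 had all CORT mice above all BCD mice, beside 53 of the 6203 genes (0.854%). The monocarboxylate carrier Slc16a1 (0.77, SE 0.31) and the insulin receptor Insr (-0.58, SE 0.29) were at an adjusted p of 1.00. The median SE over the 6203 genes was 0.361.

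The inflammatory endothelial genes Sele and Ccl2 had no UMI in any of the 9 sums, and Vcam1 had 78.2 ± 43.3 CPM. Among the planar cell polarity genes, a pathway of the study, Celsr1 and Ror2 had no UMI, and Celsr2 and Celsr3 had 8.98 ± 9.26 and 7.02 ± 9.33 CPM (SD, n = 9). None of the 6 tested members passed. In 1 of these 6 all CORT mice lay below all BCD mice, beside 43 of the 6203 genes (0.693%). The NMDA receptor genes, which encode the target of ketamine, came to 74.2 CPM against 1181 CPM in the other barcodes. Markers of other cells were also compared, and 0 of 4 tested oligodendrocyte genes passed in edgeR, with a median of -1.59. All CORT mice lay below all BCD mice in 1 of these 4, as in 0.693% of the 6203 genes. The part of markers of other cells in the results was not tested. The median over 9 neuronal markers was -0.51 and that over 6 astrocyte markers -0.25, with none called. Without the 3 shallowest libraries these medians were -0.64 and -0.89, with 8 of 9 and 5 of 6 genes negative. The oligodendrocyte median was then -0.79, with 2 of 3 tested genes negative. The 5 erythrocyte genes were all negative, with a median of -2.62, and none was called.

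**Figure D4:**
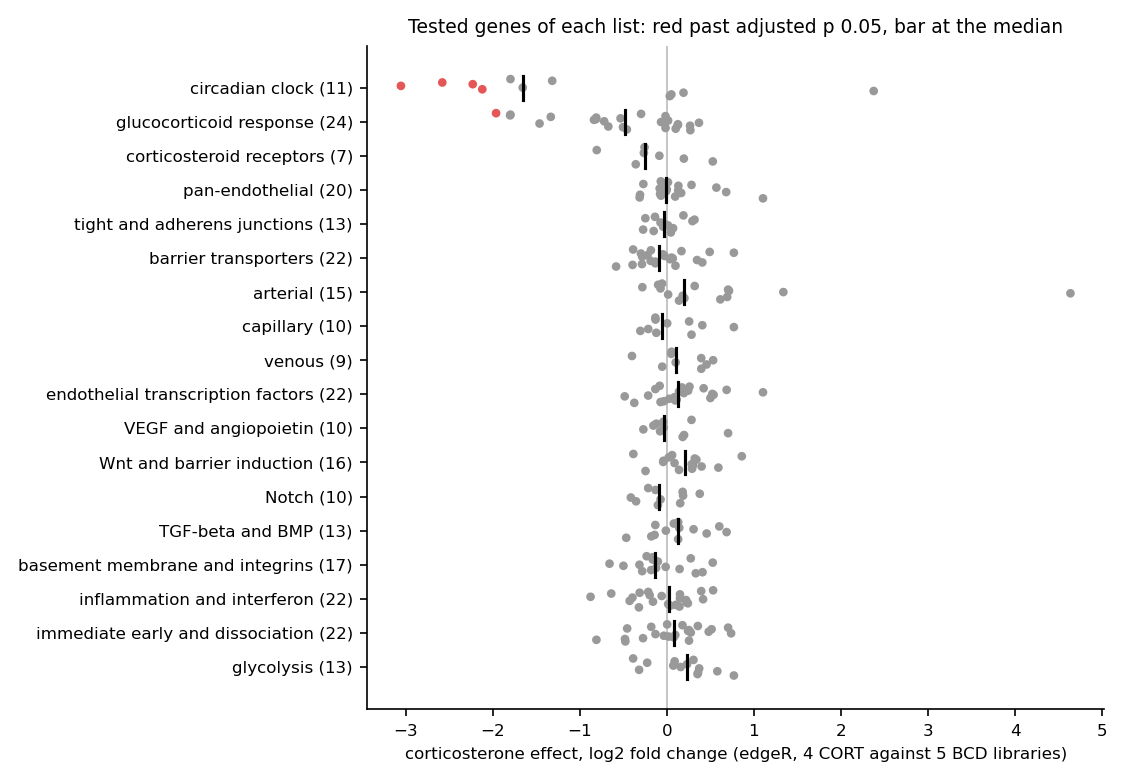
Log2 fold change between CORT (n = 4) and BCD (n = 5) from edgeR for each tested gene of 18 lists (points, number tested in brackets), red past an adjusted p of 0.05 and grey otherwise, with a black bar at each list's median. The clock list has its median at -1.65 and 4 red points, the glucocorticoid list 1 red point, and the other lists none.

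The corticosterone effect was also compared with that in astrocytes of the same mice. Astrocytes were taken by a like rule, with at least 4 UMIs of 7 astrocyte markers, in the 7 libraries with at least 10 of them, so mice 9947 and 9946 were not part of this comparison. The difference of the effects passed for 4 of 8561 genes, all more negative in endothelial cells (0.0467%), with edgeR and the library as a block. These were Mgp, Dbp (-2.42, SE 0.479, adjusted p = 0.00182), Hlf (-1.90, SE 0.390, adjusted p = 0.00338) and Nr1d1 (-2.0, SE 0.428, adjusted p = 0.00647). DESeq2 called 0 of the 8561 genes, with adjusted p of 0.412 for Dbp, 0.0768 for Hlf and 0.0812 for Nr1d1.

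For Hlf, Nr1d1 and Dbp the ratio of the BCD mean to the CORT mean was smaller in astrocytes than in endothelial cells, while in CPM the means for Dbp lay farther apart in astrocytes. Hlf had 176 ± 31.5 CPM in the astrocytes of BCD mice (SD, n = 3) and 174 ± 44.3 CPM in those of CORT mice (SD, n = 4), while endothelial cells of the same mice had 130 and 23.1 CPM. Nr1d1 had 195 ± 40.2 and 148 ± 41.5 CPM in astrocytes, and 125 and 26.6 CPM in endothelial cells. Dbp had 278 ± 44.1 and 139 ± 42.8 CPM in astrocytes, and 122 and 20.8 CPM in endothelial cells. For Nr1d2 the difference was -1.50 (adjusted p = 0.439) and for Tsc22d3 -0.99 (adjusted p = 1.00), and neither passed in edgeR. In astrocytes Tsc22d3 had 157 ± 78.4 and 92.2 ± 13.6 CPM.

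Mgp, which encodes a matrix protein of vessel walls, differed by -6.69 (SE 1.04, adjusted p = 2.72e-06, edgeR), and the difference rests on the astrocytes of 1 mouse. Astrocytes had no UMI of Mgp in the 3 BCD mice, 3 UMIs in mouse 9969, 192 in mouse 9968 and none in the other 2 CORT mice. In endothelial cells of the same mice Mgp had 128 CPM in BCD (n = 3) and 467 ± 356 CPM in CORT (SD, n = 4), and with the 2 other BCD mice, which were not in this fit, the BCD mean was 348 ± 315 CPM (SD, n = 5). Without mouse 9968 the difference for Mgp was -0.56 (adjusted p = 1.00, edgeR) and none of the 4 genes passed. Without mouse 9901 or without mouse 9969 Mgp alone passed, and Dbp, Hlf and Nr1d1 were each at an adjusted p of 1.00 (edgeR). Their differences were -1.85, -1.61 and -1.88 without mouse 9901, and -1.84, -1.60 and -1.86 without mouse 9969. Without mouse 9986 Mgp and Dbp passed. Over the 19 alternatives that gave a fit of their own, Dbp passed in 13, Hlf in 12, Nr1d1 in 11 and Mgp in 8. Without mouse 9967, the only shallow library in this comparison, there were 7 and without mouse 9971 there were 8. The astrocytes of mouse 9967, 11 cells with 9570 UMIs, gave 1 or 2 UMIs of each clock gene named here.

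**Figure D5:**
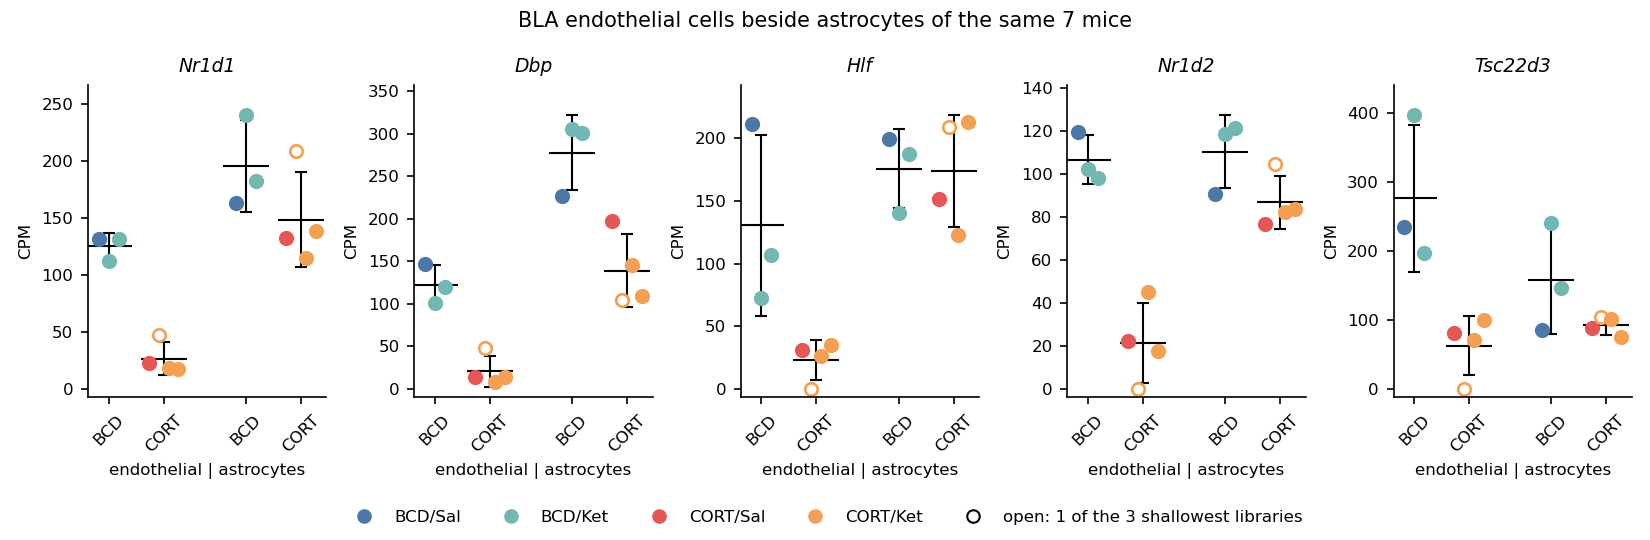
CPM of 5 genes in endothelial cells (left pair) and astrocytes (right pair) of the same 7 mice, BCD (n = 3) beside CORT (n = 4), 1 point per mouse with mean (line) and SD (bar), and an open point for mouse 9967. For Hlf the astrocyte means are 176 and 174 CPM and the endothelial means 130 and 23.1 CPM.

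Ketamine was compared with saline over both kinds of drinking water, in 6 against 3 mice of the same fit. No gene of 6203 passed an adjusted p of 0.05 with edgeR (0%) or with DESeq2, and 58 genes had an unadjusted p under 0.05 in edgeR. Without the 3 shallowest libraries the count was also 0. The 5 smallest p-values belonged to Alas2, an enzyme of haem synthesis (5.46, SE 1.6), Tagln, a smooth muscle gene (1.75, SE 0.547), mt-Atp8, Foxj3 and Plgrkt, all with an adjusted p of 1.00. The erythrocyte list, to which Alas2 belongs, was highest in 2 ketamine-treated mice, with 32418 CPM in mouse 9986 and 5246 CPM in mouse 9949. All 5 erythrocyte genes had positive fold changes after ketamine, with a median of 2.55. All 7 smooth muscle markers, to which Tagln is close in kind, were also positive, with a median of 0.88. None was called, and the part of these lists in the result was not tested.

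The clock and glucocorticoid genes showed no called change after ketamine. The 11 tested clock genes had a median of -0.07, with Nr1d1 at -0.07, Dbp at -0.07, Nr1d2 at -0.08 and Hlf at -0.54, and Tsc22d3 was at 0.05. Immediate early and dissociation genes had a median of 0.33 over 22 genes, with 2 negative. Barrier transporters had a median of 0.01 over 22 genes. The median SE of the ketamine effect was 0.387.

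The question whether ketamine acts differently after corticosterone was tested as an interaction, in which CORT/Sal is the 1 library of mouse 9969 and is assumed to vary like the other groups. No gene of 7659 passed with edgeR (0%) or DESeq2, and 333 had an unadjusted p under 0.05 in edgeR. The 5 smallest p-values belonged to Cspg5, Nrxn3, Trank1, Cacna2d1 and Shank1, each at an adjusted p of 0.276, with estimates from 7.71 (SE 1.74) to 8.10 (SE 2.06). Several of these are genes of neurons and of oligodendrocyte precursors, and the precursor list had 13.9 CPM in mouse 9969 and between 0 and 179 CPM in the other mice. Of 10 tested neuronal markers 9 had positive estimates, with a median of 3.23. All 22 immediate early and dissociation genes had negative ones, with a median of -1.29, as had all 14 tested glycolysis genes, with a median of -0.50. None was called, and the part of these lists in the result was not tested. The median SE was 0.848. Without mouse 9968 in the fit 26 genes passed. Without the 3 shallowest libraries none did.

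None of the tests of the share of endothelial cells, their depth, their mitochondrial share and their summed vessel genes passed. Endothelial cells made up 17.7% of the kept barcodes in CORT and 22% in BCD mice on average (exact permutation test within injection, two-sided, p = 0.483), and 22% in ketamine and 16.2% in saline mice (exact p = 0.350). BCD/Ket mouse 9946 had 40.2%, and the other BCD mice had 13.0% to 21.2%. Without mouse 9946 the corticosterone effect, taken within injection, moved from -5.25 to -0.264 points. The ketamine effect, taken within drinking water, moved from 6.74 to 2.31 points. The median mitochondrial share was 6.57% in CORT and 6.14% in BCD (exact p = 0.267), and the median depth 1540 and 1323 UMIs (exact p = 0.733). The rule keeps only cells with at most 12.5% mitochondrial UMIs, so the range of that share was limited beforehand and no conclusion is drawn from its test. Arterial genes, again with Clu and Stmn2, summed to 2227 and 1895 CPM in CORT and BCD (exact p = 0.600). Venous genes summed to 1231 and 1377 CPM, and capillary genes to 9221 and 8729 CPM (exact p = 0.750 and 0.717). All 12 such tests had an adjusted p of 0.925 (exact permutation tests, Benjamini-Hochberg). The smallest p the design allows is 0.0167 for corticosterone and 0.025 for ketamine. After adjustment over 12 tests, 1 measure alone could not pass even at these smallest values. No conclusion is therefore drawn from the lack of a call.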

How the data were processed

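Single-cell libraries of the BLA (10x Chromium, 1 per mouse) were analysed. The authors deposited raw UMI counts per gene and barcode for 31053 features, from Cell Ranger, whose version the file headers give as 3.0.2. The submitters' processing notes also name mm9 and Seurat 3.1.1. The annotation is not given in the sources used here. Reads from overlapping or near-identical genes could not be separated here.

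Barcodes were selected by the limits given above, and doublets were handled only through the exclusion markers. Counts were summed per library and tested with edgeR 4.0.16 (TMM factors, filterByExpr, robust quasi-likelihood fit, Benjamini-Hochberg adjustment, threshold 0.05) in R 4.3.3. Each SE of an edgeR fold change was back-calculated, as its absolute value divided by the square root of the quasi-likelihood F statistic. DESeq2 1.42.0 was an alternative. The fit was tested on simulated counts. Single values were tested by exact permutation within the other factor. Values are given as mean ± SD over libraries. The labels give no batch, and p-values measure the spread between mice.

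The members and the 36 gene lists were chosen with earlier results of these data known. Named genes were those of the lists, up to 10 genes per direction past the threshold (or, below 5 calls, the 5 smallest p-values), the 20 most abundant and the 20 with the highest fold over the other barcodes. Alternatives changed normalisation, test, filters, limits of the rule and libraries, and 2 (without the 3 shallowest libraries, and without mitochondrial genes) were added after the data were seen. Promoter windows came from RefSeq (GRCm38.p6) and gene positions, matched by Ensembl identifier, from GENCODE M1 (NCBIM37). Scripts ran in Python 3.11.15 with pandas 2.3.3, scipy 1.17.1, matplotlib 3.10.9 and numpy 2.4.6. Libraries of the prefrontal cortex were left out.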

Additional observations from a re-analysis of the deposited data

Results flagged for a closer look

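Of 82 checks of whether the highest or lowest of the 5 BCD or 4 CORT libraries lay far from the rest, 12 found such a library (Dixon's gap ratio at 95%, which chance exceeds in about 1 in 20 groups). CORT/Ket mouse 9967 gave 4 of them, with Nr1d1 at 47.5 CPM and Dbp at 47.5 CPM, each from 1 UMI, and with astrocyte markers at 3469 CPM (next CORT library 707 CPM) and smooth muscle markers at 2091 CPM (next 863 CPM). BCD/Ket mouse 9949 gave 3, with the glucocorticoid response list at 10169 CPM (next BCD library 7220 CPM), the receptor list at 4109 CPM (next 2598 CPM) and markers of macrophages and blood immune cells at 268 CPM (next 31.9 CPM). BCD/Sal mouse 9901 gave 2, with oligodendrocyte precursor markers at 179 CPM (next 45.9 CPM) and neuronal markers at 5698 CPM (next 3096 CPM). BCD/Ket mouse 9946 had the lowest median mitochondrial share of the BCD libraries, 4.87% against 6.35% in the next, BCD/Ket mouse 9986 had erythrocyte genes at 32418 CPM, and BCD/Sal mouse 9947 had ependymal markers at 237 CPM (next 109 CPM).

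The corticosterone effect differed between endothelial cells and astrocytes by a test of the difference itself for Mgp (-6.69), Dbp (-2.42), Hlf (-1.90) and Nr1d1 (-2.0, log2, edgeR), and the value for Mgp rests on the astrocytes of mouse 9968. Dbp, Hlf and Nr1d1 passed in 13, 12 and 11 of the 19 alternatives that gave a fit of their own, and none of these 3 passed with DESeq2, without mouse 9901, without mouse 9968 or without mouse 9969.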

How the results depend on the processing

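The number of genes called for corticosterone in either direction (5, all lower) stayed within 1.5 times in 19 of 24 alternatives. A minimum of 30 cells per library removed none and is not counted. It was 13 (9 lower, 4 higher) with no filter on low counts, 0 with a mitochondrial share of at most 5%, where 1801 genes were tested, and 2 in ketamine-treated mice only, and leaving out 1 library at a time gave 3 (without mouse 9969) to 18 (16 lower, 2 higher, without mouse 9971). Nr1d1 passed in 23 of 23 alternatives in which it was tested, Dbp in 22 of 23 (not with mouse 9970), Tsc22d3 in 22 of 24, Nr1d2 in 21 of 23 and Hlf in 20 of 24, all with a negative sign. For ketamine (0) leaving out 1 library gave 0 to 1. The interaction (0) gave 7 with no filter, 2 at 5% and 14 with at least 500 genes, and 0 to 26 with 1 library left out (26 without mouse 9968). The difference from astrocytes (4) was 0 with DESeq2, 0 at 5%, 2 at 25%, 2 with mouse 9970, 7 with at least 30 cells per library or without the 3 shallowest libraries (both the same fit as without mouse 9967), and 0 (without mouse 9968) to 8 (without mouse 9971) with 1 library left out. Mgp turned to 1.58 with a marker sum of at least 8 and with an exclusion sum of 0, to 0.13 with one of at most 5, to 3.43 at 5% and 0.83 at 25% mitochondrial UMIs, and to 0.056 without the 5% of cells with the most UMIs.

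Over 192 alternative values of the single measures of the cells, the smallest exact p was 0.0625. Several alternatives that leave out a library cannot reach 0.05, so this says nothing about stability. At 5% mitochondrial UMIs the sign turned for the corticosterone effect on median depth (-218 UMIs), mitochondrial share (-0.0077 points), venous (110 CPM) and capillary genes (-215 CPM), and the ketamine effect on arterial (-414 CPM) and capillary genes (978 CPM). With mouse 9970 it turned for mitochondrial share (-0.140 for corticosterone, 0.436 for ketamine), venous genes (61.6 CPM, ketamine) and capillary genes (-1050 and 1808 CPM), and without the 3 shallowest libraries for mitochondrial share (0.025, ketamine) and venous genes (373 and 124 CPM). With 1 library left out, the corticosterone and ketamine effects ranged from -8.19 to -0.264 and 2.31 to 10.4 points for the endothelial share, -252 to 587 and -259 to 652 UMIs for depth, 0.115 to 0.715 and -0.633 to -0.0149 points for mitochondrial share, -45.9 to 660 and -285 to 384 CPM for arterial, -291 to 50.4 and -567 to 116 CPM for venous, and -112 to 1009 and -1401 to 841 CPM for capillary genes. The cause of these moves was not tested.

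For the comparisons between groups of mice, no paired analysis was possible because each mouse gave 1 BLA library and no other tissue was analysed here. The comparison of endothelial cells with astrocytes was made within mice, with the library as a block. CORT/Sal is 1 mouse, the depth of mice 9947 and 9967 leaves few or no UMIs for several clock genes.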
